A study of Mus musculus with 12 samples.

Results

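Esculetin, a plant coumarin, was compared with its vehicle in the livers of mice at the end of a short high-fat diet, by RNA sequencing. The comparison used 6 of the 12 libraries of the series, 3 with vehicle and 3 with esculetin, and each library was placed in its group by the treatment that its label gives. All animals were wild-type C57BL6/J males aged 8 to 9 weeks. For 7 days they received by gavage either esculetin at 90 mg/kg/d or 2.5% Tween-80, the solvent, at a dose of 0. Both groups ate the same food, a control diet with 10% of kcal from fat for 4 days and then a high-fat diet with 60% for 3 days, so the comparison holds no liver without the high-fat diet. Per the study, a liver library was made from 2 mice, and a replicate below is therefore a pool and not an animal. The question was which hepatic functions differ with esculetin after lipid-rich food, beyond single genes. The table listed 55357 gene identifiers, and 12813 passed the filter on low counts and were tested.

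The liver makes fatty acids from sugar and stores them as triglyceride, burns fatty acids in mitochondria and peroxisomes, makes cholesterol and turns it into bile acids, and packs both lipids into lipoproteins. Its hepatocytes also clear drugs in steps, first by oxidation or hydrolysis (phase I) and then by adding glucuronic acid, sulfate or glutathione (phase II). Most proteins of blood plasma come from hepatocytes, and in male mice they secrete the major urinary proteins, small carriers that leave with the urine. Synthesis of fatty acids and cholesterol is driven by the SREBP and ChREBP transcription factors, oxidation by the fatty acid sensor PPARα, and many secreted proteins of the acute phase by C/EBP factors and STAT proteins.

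The total count ran from 14659876 to 20346460 per library. Vehicle library 1 stood apart: on the first principal component, which held 39.9% of the variance, it lay at -47.9 and the other 5 between -3.44 and 19.4. Genes of the mitochondrial genome took 6.35% of its counts against 3.60% to 4.59% in the others. Of the 1072 genes at an unadjusted p-value under 0.05 (edgeR), 717 were also under it when this library was left out. All 1072 kept their sign, but they had been selected by a fit that held this library. Keeping the sign was thus nearly given in advance and is no check on the library. Values without vehicle library 1 are given beside the results. The esculetin library nearest to the vehicle mean was library 2 for 35.8% of all tested genes (4588). It was library 1 for 4557 and library 3 for 3668. At an unadjusted p-value under 0.05 (edgeR), library 2 was the nearest for 215 of the 434 higher and 268 of the 638 lower genes. Not every list below showed this. Among lower members at that threshold, it was the nearest in 1 of 8 interferon and 0 of 4 Nrf2 genes. In phase II it was 2 of 7 lower genes and in phase I 3 of 9.

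The tissue label was checked against markers. All 10 hepatocyte markers were expressed, from Alb, which encodes albumin, with 84967, 97572 and 94662 CPM in the vehicle libraries and 69720.3, 94471 and 83328 CPM in the esculetin libraries, to the urea cycle genes Ass1 and Cps1. Ass1 stood at 2555, 2805 and 3272 CPM with vehicle and 3603, 3984 and 4071 CPM with esculetin, and Cps1 at 1688, 1948 and 1519 CPM with vehicle and 2374, 2271 and 2198 CPM with esculetin, both without overlap between the groups. The summed level of 12 Kupffer cell markers was 546 to 692 CPM with vehicle and 536 to 598 CPM with esculetin, and that of 10 endothelial markers 290.1 to 327 and 308 to 312 CPM. No pancreas marker was tested, and the defining fat cell genes were near 0 with vehicle: Adipoq, which encodes adiponectin, had 0, 5 and 3 counts with vehicle and 25, 4 and 58 with esculetin, and Plin1, the coat protein of fat cell droplets, 0, 7 and 0 and 14, 2 and 41. Esculetin libraries 1 and 3 thus held more of these fat cell transcripts than the other 4, at up to 3.75 CPM, and their part in the results below was not tested. In bulk tissue, fewer cells of a type and less RNA per cell cannot be told apart.

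A gene was called when its p-value from the quasi-likelihood test of edgeR, adjusted by the Benjamini-Hochberg method, was below 0.05. This held for 11 genes, 0.0859% of those tested, of which 7 fell and 4 rose. Before adjustment, 3.39% of the tested genes were higher and 4.98% lower at the same limit. The groups did not overlap in 6.52% of the genes in the higher and 7.95% in the lower direction. The study selected genes with limma at a fold change above 1.5 and a p-value below 0.05 before adjustment, and this rule gave 1.51% higher and 2.39% lower. The median log2 fold change of all tested genes was -0.02. These shares are the background for the lists that follow, whose members were compiled by function. For 3 against 3 libraries the smallest two-sided p-value of an exact permutation test is 0.1, so the p-values of single genes here depend on the error that edgeR borrows across genes.

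**Figure D1:**
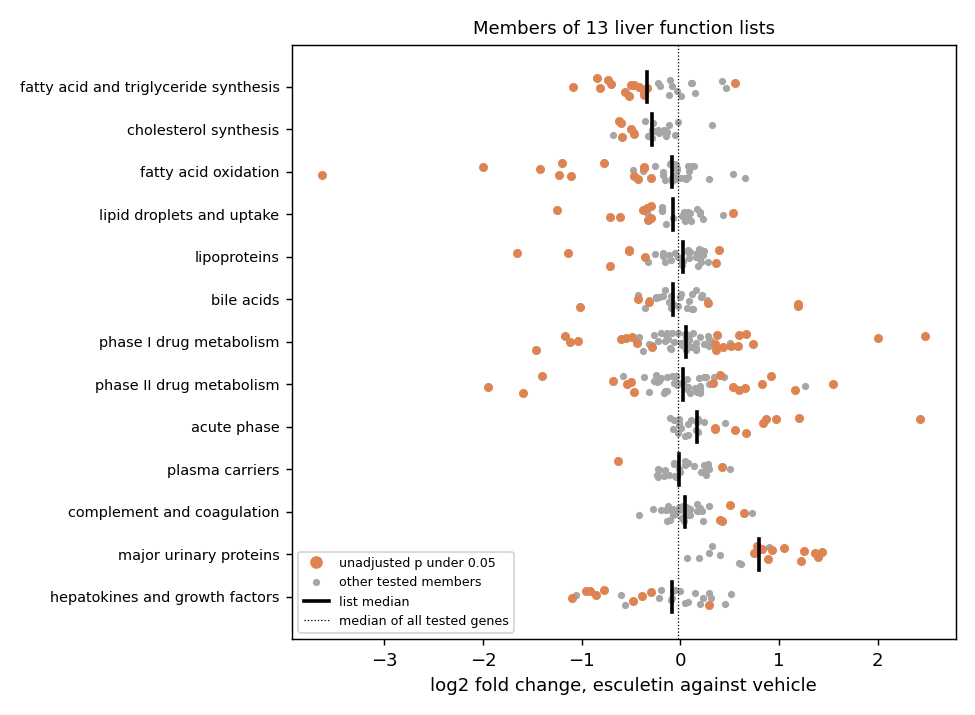
Log2 fold change (horizontal axis, esculetin against vehicle, edgeR) of every tested member of 13 liver function lists (rows). Orange points had an unadjusted p-value under 0.05, grey points did not, thick bars are list medians and the dotted line is the median of all tested genes (-0.02). The fatty acid and cholesterol synthesis lists lie to the left, with medians of -0.34 and -0.28, the major urinary proteins lie to the right, with a median of 0.80, and both drug metabolism lists spread to both sides of their medians of 0.06 and 0.03.

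The promoters of 7 genes that the results turn on are shown first: 4 of lipid metabolism that were lower, 1 bile acid gene that was higher and 2 acute phase genes that were higher. Each sequence holds the 250 bases before the start of the canonical transcript, 5′ to 3′ on the gene's strand, read from GRCm39. Capitals mark matches, on either strand, to the TATA box (TATAAA), the CCAAT box (CCAAT), an E-box (CACGTG), a nuclear receptor hexamer (AGGTCA), a C/EBP motif (TTGCNNAA, or TTNNGCAA on the other strand) and a STAT motif (TTCNNNGAA).
Angptl8, chr9:21746536-21746785, plus strand: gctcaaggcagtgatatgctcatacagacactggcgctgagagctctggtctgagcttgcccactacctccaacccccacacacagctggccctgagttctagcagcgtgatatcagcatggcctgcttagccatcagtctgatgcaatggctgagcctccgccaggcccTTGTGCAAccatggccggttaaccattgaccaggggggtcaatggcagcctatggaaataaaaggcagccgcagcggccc
Pltp, chr2:164699642-164699891, minus strand: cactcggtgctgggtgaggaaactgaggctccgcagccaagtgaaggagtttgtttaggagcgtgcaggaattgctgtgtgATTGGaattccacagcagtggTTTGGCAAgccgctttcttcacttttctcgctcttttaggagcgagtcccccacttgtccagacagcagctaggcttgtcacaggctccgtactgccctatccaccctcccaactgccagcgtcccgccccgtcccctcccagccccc
Scd1, chr19:44396341-44396590, minus strand: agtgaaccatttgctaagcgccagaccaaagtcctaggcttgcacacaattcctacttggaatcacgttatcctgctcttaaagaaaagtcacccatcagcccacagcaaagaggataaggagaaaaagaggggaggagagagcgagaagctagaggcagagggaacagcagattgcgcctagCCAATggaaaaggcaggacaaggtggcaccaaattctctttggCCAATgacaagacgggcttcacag
Sqle, chr15:59186632-59186881, plus strand: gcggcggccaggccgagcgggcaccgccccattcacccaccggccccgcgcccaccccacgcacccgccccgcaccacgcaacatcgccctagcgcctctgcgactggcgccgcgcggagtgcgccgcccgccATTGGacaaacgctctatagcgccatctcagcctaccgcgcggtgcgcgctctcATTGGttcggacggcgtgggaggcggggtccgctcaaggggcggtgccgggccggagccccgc
Cyp2c70, chr19:40175732-40175981, minus strand: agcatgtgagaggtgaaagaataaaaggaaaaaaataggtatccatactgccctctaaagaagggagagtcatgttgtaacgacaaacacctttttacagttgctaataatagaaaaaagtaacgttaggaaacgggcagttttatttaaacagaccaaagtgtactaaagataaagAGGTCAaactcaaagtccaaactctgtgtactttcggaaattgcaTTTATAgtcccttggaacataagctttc
Orm3, chr4:63274114-63274363, plus strand: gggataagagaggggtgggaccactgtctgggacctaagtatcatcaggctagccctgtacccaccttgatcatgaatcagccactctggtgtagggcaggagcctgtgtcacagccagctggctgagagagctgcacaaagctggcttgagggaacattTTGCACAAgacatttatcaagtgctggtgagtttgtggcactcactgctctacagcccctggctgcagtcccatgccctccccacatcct
Orm1, chr4:63262502-63262751, plus strand: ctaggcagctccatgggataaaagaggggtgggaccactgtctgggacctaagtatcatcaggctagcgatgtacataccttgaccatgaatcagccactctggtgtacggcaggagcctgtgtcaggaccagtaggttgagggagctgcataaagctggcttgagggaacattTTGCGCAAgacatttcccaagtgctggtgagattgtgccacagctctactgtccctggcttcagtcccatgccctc

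Of 12790 promoters of tested genes, 35.5% held a CCAAT box, 8.55% the C/EBP motif, 12.0% the nuclear receptor hexamer, 7.97% a TATA box, 7.71% the E-box and 6.59% the STAT motif. In the cholesterol synthesis list, 18 of 25 promoters held a CCAAT box, as did 14 of 20 in the major urinary protein list and 23 of 43 in the fatty acid oxidation list, and Scd1 and Sqle each held it at 2 places. In the acute phase list, 10 of 27 promoters held the C/EBP motif and 9 the nuclear receptor hexamer. The C/EBP motif was held by 0 of 25 cholesterol synthesis and 0 of 20 major urinary protein promoters. It was held by 1 of 27 fatty acid synthesis and 4 of 43 fatty acid oxidation promoters. Of the 7 promoters shown, 4 held the C/EBP motif, those of Angptl8 and Pltp, which were lower, and of Orm3 and Orm1, which were higher, and Cyp2c70 carried a nuclear receptor hexamer and a TATA box. In the fatty acid synthesis list, 7 of 27 promoters held the nuclear receptor hexamer, 4 the E-box and 8 a CCAAT box. A match describes letters in this window and not a bound site.

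The called genes that fell were Angptl8, Pltp, Pdk4, Acot3, Hes1, Efna1 and Ugt1a5, and those that rose were Gm4956, Ugt2b38, Mup12 and Orm3. Angptl8 (ENSMUSG00000047822, chromosome 9, 21746786 to 21748643), a secreted factor that holds back lipoprotein lipase after a meal, stood at 66.2, 47.8 and 43.1 CPM in the vehicle libraries and 13.2, 18.4 and 18.2 CPM in the esculetin libraries. The lowest vehicle library lay above every esculetin library by a wide margin, and the fall was -1.66 ± 0.18 (SE, adjusted p by edgeR 0.0133) on the log2 scale, -1.45 without vehicle library 1. Pltp (ENSMUSG00000017754, chromosome 2, 164677702 to 164701743), the phospholipid transfer protein that remodels HDL, was nearly constant among the vehicle libraries at 71.99, 70.8 and 72.4 CPM and stood at 27.4, 40.8 and 29.7 CPM with esculetin. Its log2 fold change was -1.14 ± 0.15 (SE, adjusted p by edgeR 0.0225).

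Pdk4 (ENSMUSG00000019577, chromosome 6, 5483097 to 5496339), the kinase that switches off pyruvate dehydrogenase and so favours fat as fuel, stood at 19.96, 23.7 and 16.4 CPM in the vehicle libraries and 6.38, 9.48 and 6.66 CPM in the esculetin libraries. Its log2 fold change was -1.42 ± 0.20 (SE, adjusted p by edgeR 0.0225), and the groups did not overlap. Acot3 (ENSMUSG00000021228, chromosome 12, 84098918 to 84107176), a peroxisomal acyl-CoA thioesterase and PPARα target, had the largest fold change among the called genes but few reads. Its counts were 226, 139 and 82 with vehicle and 6, 21 and 6 with esculetin, which is 8.51 ± 4.77 to 0.693 ± 0.582 CPM (SD, n = 3), with a log2 fold change of -3.63 ± 0.51 (SE, adjusted p by edgeR 0.0225). All 3 esculetin libraries were below the lowest vehicle library, and vehicle library 1 was the highest. Acot3 has close relatives in a cluster on the same chromosome, and the treatment of reads that match several places is not given in the sources used here.

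Hes1 (ENSMUSG00000022528, chromosome 16, 29882134 to 29886643), a transcriptional repressor of the Notch pathway, stood at 7.99, 9.47 and 8.39 CPM in the vehicle libraries and 3.60, 3.77 and 3.04 CPM in the esculetin libraries, with a log2 fold change of -1.31 ± 0.20 (SE, adjusted p by edgeR 0.0331). Efna1 (ENSMUSG00000027954, chromosome 3, 89179037 to 89188449), an ephrin ligand anchored to the cell surface, stood at 65.2, 82.8 and 74.00 CPM in the vehicle libraries and 30.1, 44.7 and 28.9 CPM in the esculetin libraries, with a log2 fold change of -1.10 ± 0.17 (SE, adjusted p by edgeR 0.0385). In both genes the vehicle and esculetin libraries were clearly apart, and esculetin library 2 was the nearest to vehicle.

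The remaining 5 called genes were Ugt1a5 and Ugt2b38 of glucuronidation, Mup12 and Orm3 among the secreted proteins, all described with their families below, and Gm4956. Gm4956 (ENSMUSG00000025936, chromosome 1, 21355832 to 21368351), a predicted gene model, had 21.5, 18.9 and 20.8 CPM in the vehicle libraries and 40.7, 40.7 and 35.5 CPM in the esculetin libraries and the smallest SE among the called genes, with a log2 fold change of 0.93 ± 0.13 (SE, adjusted p by edgeR 0.0225). All 3 esculetin libraries lay above the 3 vehicle libraries. The 11 called genes lost their calls together when libraries were scaled by size only and when vehicle library 2, esculetin library 1 or esculetin library 3 was left out, since those fits called 0 genes (1149, 962, 769 and 624 genes at an unadjusted p-value under 0.05 in edgeR). The calls numbered 31 without vehicle library 3 and 16 without vehicle library 1.

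**Figure D2:**
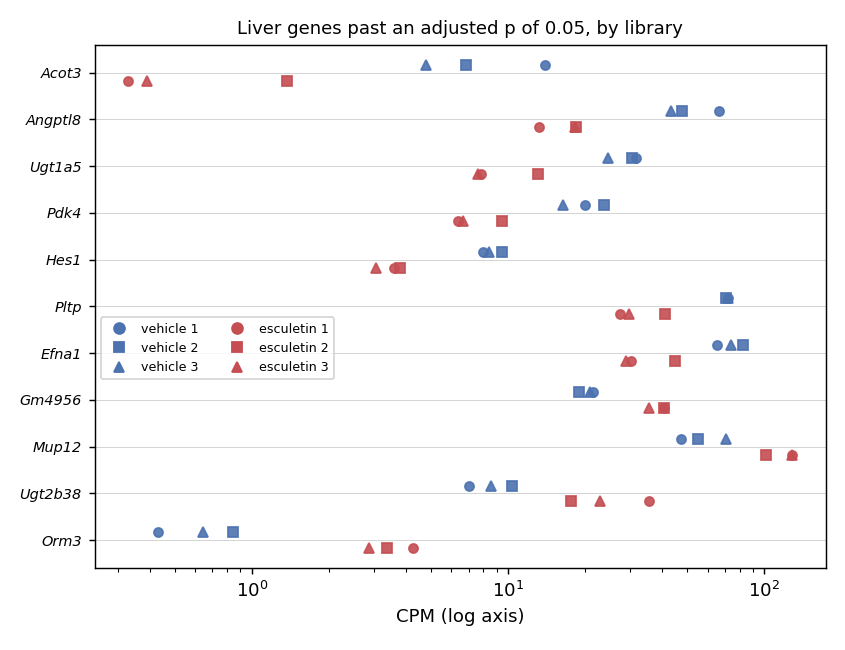
CPM (horizontal log axis) of the 11 called genes (rows) in each of the 6 liver libraries. Blue points are vehicle and red points esculetin, and the marker shape gives the replicate number. No red point of any row overlaps the blue ones, and esculetin library 2 (square) is the red point nearest to vehicle in 9 of the 11, all but Gm4956 and Orm3.

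Of 27 tested genes of fatty acid and triglyceride synthesis, 20 were below 0 and 7 above, 13 were lower and 1 was higher at an unadjusted p-value under 0.05, the groups did not overlap in 11 lower and 1 higher member, and 0 were called. The median log2 fold change was -0.34 (-0.26 without vehicle library 1), against -0.02 over all tested genes, and it ran from -0.45 to -0.23 over the alternatives. Among the 13 lower members, esculetin library 2 was the esculetin library nearest to vehicle in 12.

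Scd1, the stearoyl-CoA desaturase that makes monounsaturated fatty acids and by far the most abundant member, stood at 10478, 8992 and 9099.6 CPM in the vehicle libraries and 3742, 5773 and 3965 CPM in the esculetin libraries. Every esculetin library was below every vehicle library, and the log2 fold change was -1.08 ± 0.18 (SE, adjusted p by edgeR 0.0527). Me1, malic enzyme, which supplies NADPH for lipid synthesis, stood at 190.4, 183 and 159 CPM with vehicle and 89.5, 121 and 108 CPM with esculetin, a log2 fold change of -0.74 ± 0.14 (SE, adjusted p by edgeR 0.0839). Elovl5, an elongase of polyunsaturated fatty acids, stood at 1097, 927 and 887 CPM with vehicle and 440.1, 708 and 508 CPM with esculetin, a log2 fold change of -0.81 ± 0.17 (SE, adjusted p by edgeR 0.165). Gpam, which takes the first step of triglyceride synthesis, had 271, 262 and 208 CPM with vehicle and 162, 181 and 161 CPM with esculetin, and a log2 fold change of -0.56 ± 0.13 (SE, adjusted p by edgeR 0.21). None of these 4 overlapped between the groups.

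Fasn, fatty acid synthase, followed the same order, with 515, 401 and 422 CPM with vehicle and 205, 373 and 244 CPM with esculetin (log2 fold change -0.70 ± 0.20 (SE, adjusted p by edgeR 0.31)). Its esculetin library 2, at 373 CPM, was just below the lowest vehicle library, at 401 CPM. Elovl6, which elongates saturated fatty acids, depended on vehicle library 1, with 53.5, 26.3 and 28.4 CPM with vehicle and 18.3, 26.2 and 15.7 CPM with esculetin. Its log2 fold change was -0.84, and -0.44 without that library. Of the 7 members above 0, the 1 at an unadjusted p-value under 0.05 was Lpin1, which makes diacylglycerol and also acts as a coactivator in the nucleus. It had 14.4, 21.3 and 15.1 CPM with vehicle and 19.5, 27.8 and 27.5 CPM with esculetin and a log2 fold change of 0.55 ± 0.19 (SE, adjusted p by edgeR 0.458). Its groups overlapped, so the 1 higher member without overlap was another gene. The 4 regulators of the list, among them the SREBP-1 and ChREBP genes, had a median of 0.04 (near 0 without vehicle library 1), and only Mlxipl (ChREBP) was under an unadjusted p-value of 0.05, with overlapping groups (135, 93.4 and 57.5 CPM with vehicle and 64.5, 71.5 and 66.1 CPM with esculetin).

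Cholesterol synthesis and uptake genes had a median log2 fold change of -0.28 (-0.30 without vehicle library 1), and 24 of 25 tested members were below 0. At an unadjusted p-value under 0.05, 5 were lower and 0 higher, and 0 were called. The groups did not overlap in 1 lower and 0 higher members, beside 7.95% lower over all tested genes. The summed level of the list was 2849, 3165 and 2740 CPM with vehicle and 2009, 2965 and 2191 CPM with esculetin. These ranges overlapped. The median ran from -0.55 to -0.11 over the alternatives. Sqle, squalene epoxidase, had 39.6, 45.1 and 34.2 CPM with vehicle and 16.5, 37.98 and 24.01 CPM with esculetin, and Hmgcs1, which makes HMG-CoA, had 211, 156 and 127 CPM with vehicle and 78.9, 157 and 92.3 CPM with esculetin. In both, esculetin libraries 1 and 3 were below every vehicle library and esculetin library 2 lay among them. The same held for Insig1, which holds SREBP back in the endoplasmic reticulum, with 244, 290.0 and 237 CPM with vehicle and 155, 248 and 144 CPM with esculetin. The log2 fold changes were -0.60 ± 0.24 (SE, adjusted p by edgeR 0.525), -0.59 ± 0.24 (SE, adjusted p by edgeR 0.537) and -0.50 ± 0.19 (SE, adjusted p by edgeR 0.511). That of Hmgcs1 was -0.37 without vehicle library 1, and that of Sqle was -0.37 without esculetin library 1. Without esculetin library 2 they were -0.98 for Sqle, -0.96 for Hmgcs1 and -0.79 for Insig1. In all 5 members at the threshold, Sc5d among them, esculetin library 2 was the nearest to vehicle.

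**Figure D3:**
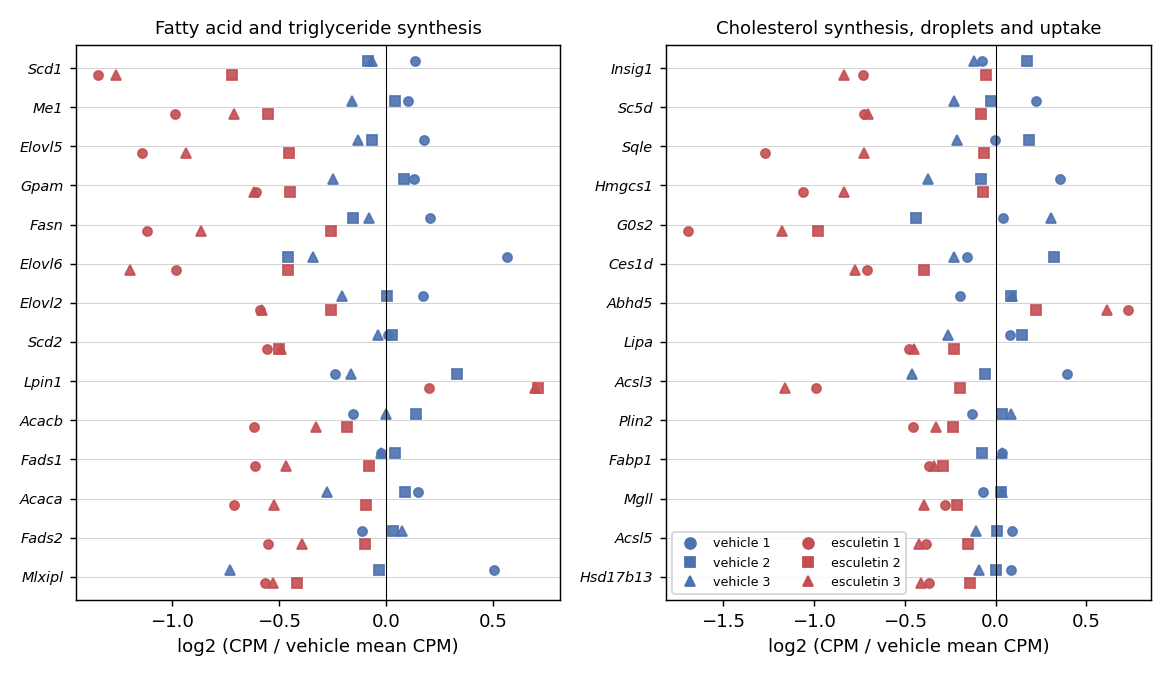
Level of members at an unadjusted p-value under 0.05 in each library, as log2 of CPM over the vehicle mean CPM, for fatty acid and triglyceride synthesis (left) and for cholesterol synthesis followed by lipid droplets and uptake (right). Of the cholesterol synthesis members at this threshold, only those named in the text are drawn. Blue points are vehicle, red points esculetin, and squares mark replicate 2. Most red points lie left of 0, those of esculetin library 2 closest to it, while Lpin1 and Abhd5 lie to the right.

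Genes of fatty acid oxidation are given by compartment, with thioesterases and regulators apart. Of 18 tested mitochondrial members, 0 were under an unadjusted p-value of 0.05 and the median log2 fold change was -0.05. Of 14 peroxisomal and microsomal members, 7 were lower, with a median of -0.24, and of 7 thioesterases 3 were lower, with a median of -0.38, and no member of the list was higher at this threshold. The 4 regulators had a median of -0.95 (-0.82 without vehicle library 1). Of these, 2 were lower at this threshold and 1 was called, Pdk4. Over all 43 members the median was -0.08 (-0.12 without vehicle library 1), and 2 were called, Acot3 and Pdk4. The difference between compartments was not tested.

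The ω-hydroxylases of the Cyp4a family, which start a side route of fatty acid breakdown, were among the lower members. Cyp4a31 had 14.6, 13.5 and 13.6 CPM with vehicle and 4.20, 7.21 and 6.47 CPM with esculetin, without overlap, and a log2 fold change of -1.23 ± 0.20 (SE, adjusted p by edgeR 0.0518). Cyp4a10 had 396, 463 and 473 CPM with vehicle and 283, 374 and 332 CPM with esculetin (log2 fold change -0.43 ± 0.14 (SE, adjusted p by edgeR 0.417)). Cyp4a14 was more variable, with 529, 601 and 231 CPM with vehicle and 111, 317 and 164 CPM with esculetin, and its groups overlapped (log2 fold change -1.20 ± 0.37 (SE, adjusted p by edgeR 0.372)). These genes are close copies of one another, which carries the same uncertainty about shared reads as in Acot3.

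Acot4, a thioesterase next to Acot3, had 48.7, 31.3 and 23.7 CPM with vehicle and 14.1, 19.7 and 14.4 CPM with esculetin and a log2 fold change of -1.10 ± 0.24 (SE, adjusted p by edgeR 0.165), and -0.77 without vehicle library 1. Fgf21, a fasting hormone of the liver and PPARα target, was rare, with 65, 95 and 49 counts with vehicle and 5, 26 and 15 with esculetin (log2 fold change -2.0 ± 0.46 (SE, adjusted p by edgeR 0.186)). Pex11a, which divides peroxisomes, had 104, 94.3 and 82.5 CPM with vehicle and 74.3, 59.8 and 68.98 CPM with esculetin (log2 fold change -0.47 ± 0.13 (SE, adjusted p by edgeR 0.31)).

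Among 29 tested lipid droplet and uptake genes, 9 were lower and 1 higher at an unadjusted p-value under 0.05, 0 were called, and the median was -0.08 (-0.16 to -0.05 over the alternatives). In all 9 lower members esculetin library 2 was the nearest to vehicle. G0s2, an inhibitor of the triglyceride lipase ATGL, stood at 239, 171 and 286 CPM in the vehicle libraries and 71.9, 118 and 103 CPM in the esculetin libraries, without overlap, and its log2 fold change was -1.25 ± 0.21 (SE, adjusted p by edgeR 0.0518). Abhd5, the coactivator of the same lipase, was the higher member, with 20.02, 24.3 and 24.5 CPM with vehicle and 38.1, 26.8 and 35.1 CPM with esculetin and a log2 fold change of 0.54 ± 0.16 (SE, adjusted p by edgeR 0.319). The inhibitor and the coactivator of ATGL thus lay on opposite sides, neither past the adjusted threshold.

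Plin2, the main droplet coat protein of hepatocytes, had 953, 1070.2 and 1109 CPM with vehicle and 762, 887 and 833 CPM with esculetin (log2 fold change -0.34 ± 0.13 (SE, adjusted p by edgeR 0.512)), and Fabp1, the liver fatty acid binding protein, 3790.4, 3517 and 3800.2 CPM with vehicle and 2868, 3026 and 2931 CPM with esculetin (-0.33 ± 0.13 (SE, adjusted p by edgeR 0.517)). In both genes the groups did not overlap, with small differences. Ces1d, a carboxylesterase that draws on stored triglyceride, had 947, 1322 and 903 CPM with vehicle and 649, 806 and 619 CPM with esculetin (log2 fold change -0.61 ± 0.17 (SE, adjusted p by edgeR 0.306)). Cd36, the fatty acid translocase that the study followed in macrophages, overlapped fully, with 34.6, 21.4 and 24.2 CPM with vehicle and 36.1, 21.4 and 27.05 CPM with esculetin.

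Among 35 tested lipoprotein genes, 2 were called, Angptl8 and Pltp. At an unadjusted p-value under 0.05, 6 were lower and 2 higher, and the median was 0.03 (-0.04 when scaled by library size only, 0.07 without vehicle library 3). Of 12 apolipoprotein genes, only Apoa4 was at this threshold, with 449, 386 and 838 CPM with vehicle and 388, 295 and 335 CPM with esculetin, overlapping groups and a log2 fold change of -0.72 ± 0.24 (SE, adjusted p by edgeR 0.452), which was -0.32 without vehicle library 3. Apoa1, the main protein of HDL, had 11226, 14209 and 17317 CPM with vehicle and 14875, 15666 and 14455 CPM with esculetin, and Apoe 22258, 27742 and 29258 CPM with vehicle and 27543, 26233 and 26176 CPM with esculetin. In both, vehicle library 1 was the lowest and the groups overlapped.

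Scarb1, the HDL receptor SR-BI, was higher without overlap, with 152, 203 and 186 CPM with vehicle and 229, 231 and 236 CPM with esculetin (log2 fold change 0.36 ± 0.13 (SE, adjusted p by edgeR 0.478)). Mttp, which loads lipid on apolipoprotein B, had 304, 298 and 247 CPM with vehicle and 238, 219 and 205 CPM with esculetin (log2 fold change -0.36 ± 0.13 (SE, adjusted p by edgeR 0.478)), and Tm6sf2, which acts in the same export route, 30.96, 31.4 and 29.2 CPM with vehicle and 15.8, 28.4 and 19.9 CPM with esculetin (-0.52 ± 0.19 (SE, adjusted p by edgeR 0.486)). Both were below every vehicle library.

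Bile acid genes went in both directions. Of 31 tested, 3 were higher and 3 lower at an unadjusted p-value under 0.05, 0 were called, and the median was -0.07 (-0.14 to -0.02 over the alternatives). The 12 synthesis genes had a median of 0.17 (0.09 without vehicle library 1), with 6 higher without overlap, and the 11 transporters a median of -0.09 (-0.02 without it). Cyp2c70 (ENSMUSG00000060613, chromosome 19, 40141797 to 40175777), which makes the muricholic acids of mice, stood at 316, 433 and 429.9 CPM in the vehicle libraries and 1192, 697 and 798 CPM in the esculetin libraries. All esculetin libraries were higher, esculetin library 1 most, and the log2 fold change was 1.19 ± 0.20 (SE, adjusted p by edgeR 0.0527), 1.06 without vehicle library 1. Cyp7b1, which hydroxylates oxysterols on the alternative route of synthesis, had 55.7, 90.6 and 99.2 CPM with vehicle and 262, 107 and 191 CPM with esculetin, and a log2 fold change of 1.19 ± 0.28 (SE, adjusted p by edgeR 0.21). Its esculetin library 2 was only just above the highest vehicle library.

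Cyp7a1, the rate-limiting enzyme of the classical route, was low and overlapped, with 17.1, 12.6 and 11.4 CPM with vehicle and 16.02, 7.14 and 7.12 CPM with esculetin (log2 fold change -0.43 ± 0.29 (SE, adjusted p by edgeR 0.709)). Cyp8b1, which sets the share of cholic acid, had 422, 467 and 566 CPM with vehicle and 423, 385 and 357 CPM with esculetin (log2 fold change -0.32 ± 0.14 (SE, adjusted p by edgeR 0.564)). Nr1h4, which encodes the bile acid receptor FXR, was lower without overlap, with 113, 113 and 117 CPM with vehicle and 80.8, 89.5 and 84.9 CPM with esculetin and a log2 fold change of -0.42 ± 0.11 (SE, adjusted p by edgeR 0.269). Slco1a4, an uptake transporter of organic anions and bile salts, had 27.8, 20.7 and 19.2 CPM with vehicle and 8.28, 15.2 and 9.97 CPM with esculetin (log2 fold change -1.02 ± 0.22 (SE, adjusted p by edgeR 0.165)).

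Phase I genes were also split, with 11 of 66 tested higher and 9 lower at an unadjusted p-value under 0.05 and 0 called. Their median was 0.06, and it was -0.03 without vehicle library 1, -0.03 without vehicle library 3 and near 0 when scaled by library size only. Of the Cyp2c genes at this threshold, Cyp2c55 was lower and the others higher. Cyp2c67 had 97.5, 129 and 122 CPM with vehicle and 177, 155 and 196 CPM with esculetin, and Cyp2c68 110.0, 151 and 137 CPM with vehicle and 236, 177 and 185 CPM with esculetin. Both pairs of groups were apart, with log2 fold changes of 0.60 ± 0.14 (SE, adjusted p by edgeR 0.209) and 0.59 ± 0.15 (SE, adjusted p by edgeR 0.274). Cyp2c40, a rare relative, had 18, 84 and 39 counts with vehicle and 456, 71 and 206 with esculetin (log2 fold change 2.48 ± 0.53 (SE, adjusted p by edgeR 0.165)), with esculetin library 2 barely above the vehicle libraries in CPM. The Cyp2c genes are near copies of one another, so reads may have been shared between them.

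Cyp1a2, the caffeine-oxidizing enzyme and a target of the aryl hydrocarbon receptor, had 379, 506 and 482 CPM with vehicle and 627, 589 and 628 CPM with esculetin and a log2 fold change of 0.43 ± 0.14 (SE, adjusted p by edgeR 0.391). On the lower side, Cyp3a11, the main drug-oxidizing Cyp3a enzyme of mouse liver, stood at 1934, 2009.6 and 1743 CPM in the vehicle libraries and 1205, 1408 and 1129.9 CPM in the esculetin libraries. The groups were far from overlapping, and the log2 fold change was -0.60 ± 0.14 (SE, adjusted p by edgeR 0.186). Ephx1, microsomal epoxide hydrolase, had 285, 386 and 326 CPM with vehicle and 249, 198 and 233 CPM with esculetin (log2 fold change -0.55 ± 0.14 (SE, adjusted p by edgeR 0.271)), and the carboxylesterase Ces1e 188, 222 and 197 CPM with vehicle and 138, 160.3 and 135 CPM with esculetin (-0.49 ± 0.12 (SE, adjusted p by edgeR 0.251)). Cyp2d13 was lower mainly through vehicle library 1, with 222, 82.8 and 62.5 CPM with vehicle and 60.2, 50.97 and 51.3 CPM with esculetin, and its log2 fold change went from -1.17 to -0.42 without that library.

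Of 55 tested phase II genes, 9 were higher and 7 lower at an unadjusted p-value under 0.05, and 2 were called, in opposite directions. Ugt1a5 (ENSMUSG00000089943, chromosome 1, 88093707 to 88147724), a glucuronosyltransferase of the Ugt1a locus, stood at 31.6, 30.3 and 24.4 CPM in the vehicle libraries and 7.85, 13.1 and 7.64 CPM in the esculetin libraries, and fell by 1.60 on the log2 scale (SE 0.21, adjusted p by edgeR 0.0225). Ugt2b38 (ENSMUSG00000061906, chromosome 5, 87557801 to 87572062), of the Ugt2b cluster, stood at 7.00, 10.3 and 8.57 CPM in the vehicle libraries and 35.4, 17.5 and 22.8 CPM in the esculetin libraries, a log2 fold change of 1.55 ± 0.24 (SE, adjusted p by edgeR 0.0385). Neither overlapped. Of the 14 alternatives, 9 took away the call of Ugt2b38.

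A relative of each lay on the same side, neither called. Ugt2b1 had 357, 459.6 and 469 CPM with vehicle and 1049, 627 and 757 CPM with esculetin (log2 fold change 0.92 ± 0.19 (SE, adjusted p by edgeR 0.122)), and Ugt1a6a, which was rare, had 58, 27 and 18 counts with vehicle and 12, 8 and 5 with esculetin (log2 fold change -1.95 ± 0.53 (SE, adjusted p by edgeR 0.305), and -1.23 without vehicle library 1). The Ugt1a transcripts share their last exons, so their reads cannot be fully told apart. Over all 17 glucuronidation genes the median was -0.04.

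The sulfotransferases had the highest median of the phase II groups, 0.35 over 8 tested (0.41 without vehicle library 1), with 4 higher and 0 lower at an unadjusted p-value under 0.05. The groups did not overlap in 2 higher and 1 lower member. Their summed level overlapped, at 941, 780 and 939 CPM with vehicle and 952, 1091 and 876 CPM with esculetin. Sult1b1, which acts on thyroid hormones and phenols, had 21.6, 20.4 and 30.9 CPM with vehicle and 38.2, 34.4 and 33.1 CPM with esculetin (log2 fold change 0.54 ± 0.16 (SE, adjusted p by edgeR 0.36)), Sult5a1 12.6, 10.6 and 19.00 CPM with vehicle and 24.1, 17.5 and 24.8 CPM with esculetin (0.66 ± 0.21 (SE, adjusted p by edgeR 0.436)) and Sult1d1, which acts on catecholamines, 53.4, 32.4 and 38.2 CPM with vehicle and 77.4, 62.2 and 47.9 CPM with esculetin (0.60 ± 0.20 (SE, adjusted p by edgeR 0.448)). The groups overlapped in Sult5a1 and Sult1d1. Of 24 glutathione genes, 1 was higher and 4 lower. Gclc, which makes the rate-limiting step of glutathione synthesis, had 401, 360.3 and 257 CPM with vehicle and 211, 244 and 247 CPM with esculetin (log2 fold change -0.54 ± 0.16 (SE, adjusted p by edgeR 0.347)), and Gstm3 39.1, 29.9 and 40.3 CPM with vehicle and 15.7, 24.2 and 28.1 CPM with esculetin (-0.68 ± 0.20 (SE, adjusted p by edgeR 0.319)). Nnmt, which methylates nicotinamide, was higher without overlap, with 132, 119 and 199 CPM with vehicle and 334, 206 and 256 CPM with esculetin (log2 fold change 0.83 ± 0.21 (SE, adjusted p by edgeR 0.248)).

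**Figure D4:**
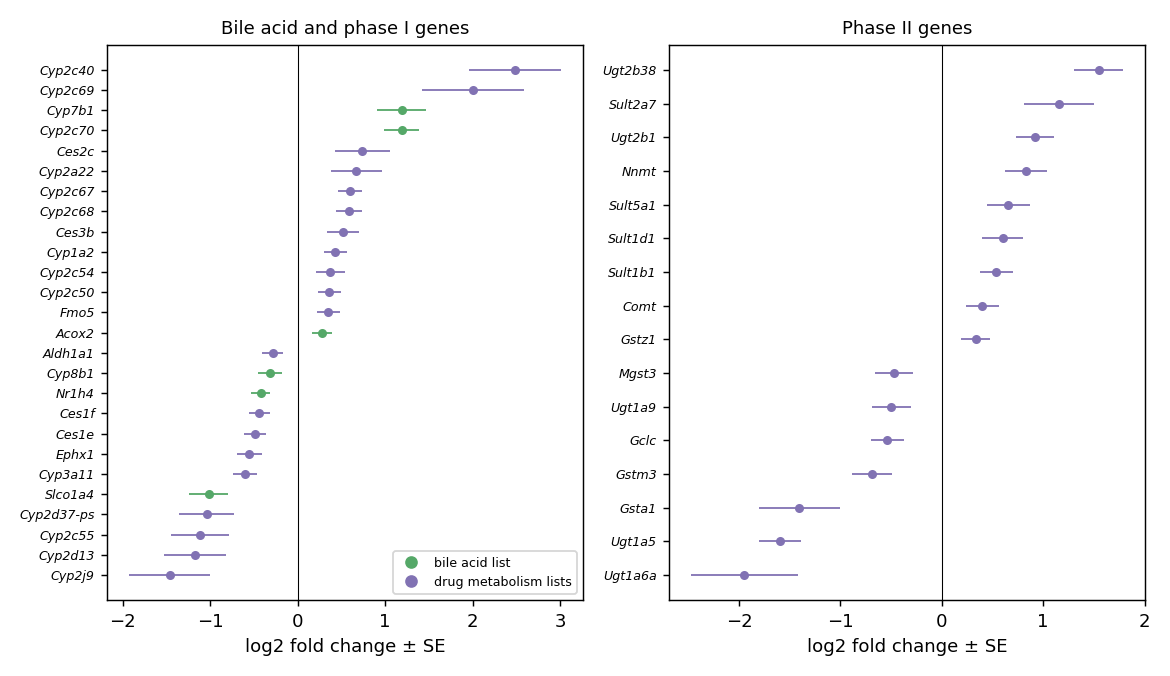
Log2 fold change with its standard error (horizontal axis, edgeR, esculetin against vehicle) of the bile acid and phase I genes (left) and the phase II genes (right) at an unadjusted p-value under 0.05. Green marks the bile acid list and purple the drug metabolism lists. The points fall on both sides of 0, from -1.95 for Ugt1a6a to 2.48 for Cyp2c40.

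Of 27 tested genes of the acute phase, 20 were above 0 and 7 below, 9 were higher and 0 lower at an unadjusted p-value under 0.05, 8 without overlap, and 1 was called. The median log2 fold change was 0.17 (0.12 without vehicle library 1) and ran from 0.11 to 0.21 over the alternatives. The orosomucoids, acidic glycoproteins that bind drugs, were all higher. Orm3 (ENSMUSG00000028359, chromosome 4, 63274208 to 63277748) was rare, with 7, 17 and 11 counts with vehicle and 78, 52 and 44 with esculetin, and its log2 fold change was 2.43 ± 0.34 (SE, adjusted p by edgeR 0.0225). Orm1, the abundant member, had 453, 554 and 599 CPM with vehicle and 886, 659 and 817 CPM with esculetin (log2 fold change 0.56 ± 0.15 (SE, adjusted p by edgeR 0.305)), and Orm2 4.79, 4.74 and 6.29 CPM with vehicle and 19.02, 6.62 and 10.7 CPM with esculetin (1.21 ± 0.32 (SE, adjusted p by edgeR 0.274), and 0.71 without esculetin library 1). In all 3 genes every esculetin library was above every vehicle library. They are adjacent copies on chromosome 4, and reads shared between them are possible.

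Serpina3k, a plasma serine protease inhibitor and the most abundant member, stood at 9737, 17659 and 20011 CPM in the vehicle libraries and 31793, 22054 and 31206 CPM in the esculetin libraries. Esculetin libraries 1 and 3 were the highest, esculetin library 2 was close above the vehicle libraries, and the log2 fold change was 0.84 ± 0.25 (SE, adjusted p by edgeR 0.334), 0.59 without vehicle library 1. Saa4, a serum amyloid A of HDL, had 223, 235 and 258 CPM with vehicle and 475, 261 and 403 CPM with esculetin (log2 fold change 0.67 ± 0.19 (SE, adjusted p by edgeR 0.309)), and Apcs, amyloid P component, 55.5, 60.3 and 74.5 CPM with vehicle and 79.1, 79.3 and 85.2 CPM with esculetin (0.36 ± 0.13 (SE, adjusted p by edgeR 0.494)). Haptoglobin (Hp) and hemopexin (Hpx), which bind free hemoglobin and heme, did not differ past their spread, with log2 fold changes of 0.17 and 0.11.

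The major urinary protein genes were the list with the highest median, 0.80 (0.60 without vehicle library 1). All 20 tested members were above 0, 12 of them at an unadjusted p-value under 0.05, 5 without overlap, and 1 was called. In all 12, esculetin library 2 was the nearest to vehicle. Mup12 (ENSMUSG00000094793, chromosome 4, 60693376 to 60697325) stood at 47.2, 55.3 and 70.9 CPM in the vehicle libraries and 129, 102 and 128 CPM in the esculetin libraries, and rose by 1.05 on the log2 scale (SE 0.16, adjusted p by edgeR 0.036). Mup22, with 165, 208 and 169 CPM with vehicle and 326, 264 and 321 CPM with esculetin, Mup2, with 20.5, 20.2 and 24.9 CPM with vehicle and 43.3, 33.2 and 36.04 CPM with esculetin, and Mup1, with 20.9, 43.9 and 37.1 CPM with vehicle and 118, 62.01 and 82.96 CPM with esculetin, also did not overlap. Their log2 fold changes were 0.75 ± 0.14 (SE, adjusted p by edgeR 0.0839), 0.78 ± 0.15 (SE, adjusted p by edgeR 0.0839) and 1.37 ± 0.26 (SE, adjusted p by edgeR 0.104).

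The 3 most abundant members were not called and overlapped between the groups. Per exon length, in RPKM, the vehicle means were 4526 for Mup3, 3139 for Mup7 and 1930.3 for Mup20, against 54.3 for Mup12. Mup3 had 7876, 9781 and 11252 CPM with vehicle and 11153, 10339 and 11427 CPM with esculetin (log2 fold change 0.19 ± 0.16 (SE, adjusted p by edgeR 0.776)), and Mup7, the most variable, 3370.2, 8115 and 12556 CPM with vehicle and 16132, 6596 and 9067 CPM with esculetin (0.40 ± 0.40 (SE, adjusted p by edgeR 0.809)). The summed level of the family was 15495, 24373 and 34315 CPM with vehicle and 37824, 24686 and 28986 CPM with esculetin, and these ranges overlapped. The members are near-identical copies on chromosome 4, and the split of reads between them is uncertain.

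**Figure D5:**
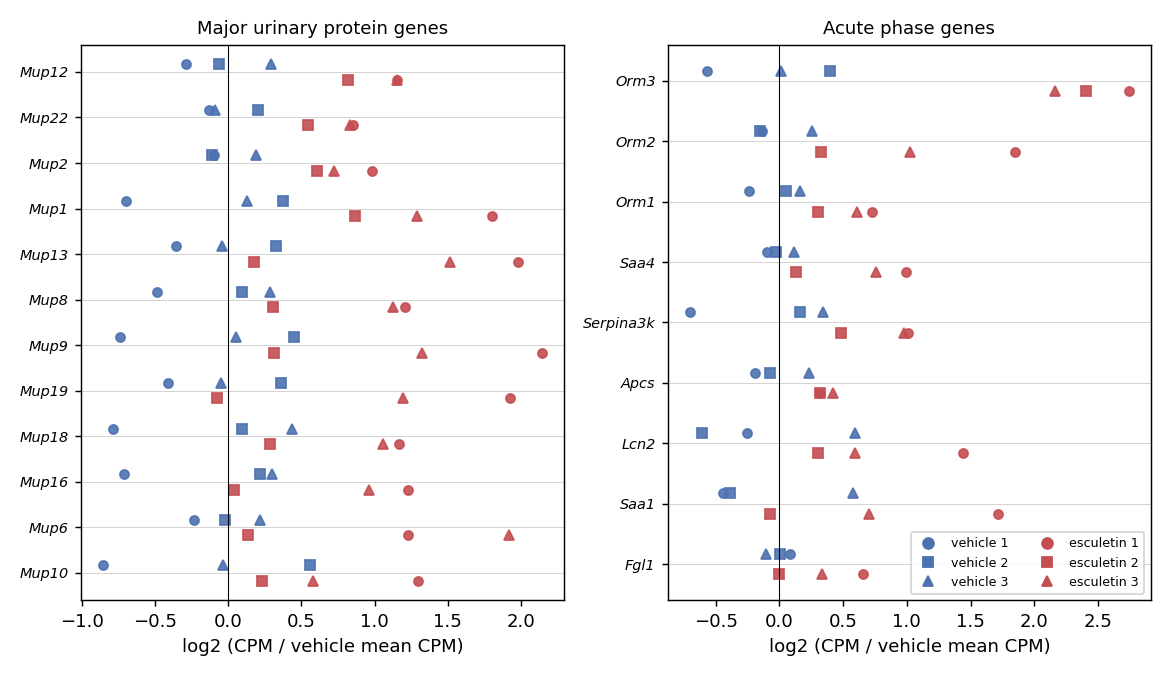
Level in each library, as log2 of CPM over the vehicle mean CPM (horizontal axis), of the major urinary protein genes (left) and acute phase genes (right) at an unadjusted p-value under 0.05. Blue points are vehicle, red points esculetin, and squares mark replicate 2. Red circles and triangles lie to the right in nearly all rows, while the red squares lie near or among the blue points for Mup19, Mup16, Saa1 and Fgl1.

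Other plasma proteins differed less. Of 43 complement and coagulation genes, 4 were higher and 0 lower at an unadjusted p-value under 0.05, and 0 were called. The median was 0.05 and was -0.01 when scaled by library size only. The 4 were C8b and C9, parts of the membrane attack complex, and F11 and Cpb2 of coagulation. C8b had 200.4, 292 and 252 CPM with vehicle and 477, 306 and 381 CPM with esculetin (log2 fold change 0.64 ± 0.18 (SE, adjusted p by edgeR 0.309)), C9 390.0, 444 and 473 CPM with vehicle and 726, 476 and 644 CPM with esculetin (0.50 ± 0.16 (SE, adjusted p by edgeR 0.417)), F11 33.2, 28.6 and 32.3 CPM with vehicle and 45.7, 39.7 and 40.7 CPM with esculetin (0.42 ± 0.12 (SE, adjusted p by edgeR 0.329)) and Cpb2 276, 336 and 350.1 CPM with vehicle and 435, 409 and 429 CPM with esculetin (0.40 ± 0.13 (SE, adjusted p by edgeR 0.393)). Of 27 carriers, 1 was higher and 1 lower, with a median of -0.01. Serpina6, the corticosteroid-binding globulin, was lower without overlap, with 327, 267 and 247 CPM with vehicle and 170.2, 202 and 170.3 CPM with esculetin and a log2 fold change of -0.63 ± 0.14 (SE, adjusted p by edgeR 0.165).

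Among 28 hepatokine and growth factor genes, 8 were lower and 1 higher at an unadjusted p-value under 0.05, the median was -0.09 (-0.23 to -0.08 over the alternatives), and Efna1 was the 1 called. Inhbe, which encodes activin E, a liver factor that acts on fat tissue, stood at 93.9, 52.9 and 66.3 CPM in the vehicle libraries and 35.7, 33.7 and 40.6 CPM in the esculetin libraries, without overlap and with a log2 fold change of -0.95 ± 0.18 (SE, adjusted p by edgeR 0.104), -0.70 without vehicle library 1. Igfbp3, the main carrier of IGF-1, had 22.9, 22.9 and 29.8 CPM with vehicle and 18.3, 17.7 and 18.1 CPM with esculetin (log2 fold change -0.48 ± 0.15 (SE, adjusted p by edgeR 0.354)), and Cxcl12, a chemokine, 373, 378 and 312 CPM with vehicle and 266, 303 and 242 CPM with esculetin (-0.39 ± 0.13 (SE, adjusted p by edgeR 0.457)). Igf1 itself had 360.3, 353 and 418 CPM with vehicle and 467, 417 and 443 CPM with esculetin, with a log2 fold change of 0.23 and overlapping groups.

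The 2 C/EBP factors that the study followed were higher without overlap and not called. Cebpb had 47.8, 74.3 and 69.98 CPM with vehicle and 97.5, 96.9 and 120.5 CPM with esculetin (log2 fold change 0.71 ± 0.17 (SE, adjusted p by edgeR 0.209)), and Cebpd 7.62, 8.19 and 13.5 CPM with vehicle and 15.6, 14.2 and 17.3 CPM with esculetin (0.69 ± 0.21 (SE, adjusted p by edgeR 0.376)). Without vehicle library 1, which was the lowest in both, the log2 fold changes were 0.54 and 0.54.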

How the data were processed

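RNA of 6 liver libraries was analysed, 3 per group, and the cell libraries of the series were not used here. The deposited values are raw counts per gene locus. Per the study, the authors prepared libraries with the NEBNext Ultra RNA kit, aligned paired-end reads to GRCm39 with HISAT2 2.2.1 and counted them with featureCounts. The submitters' processing notes also name mm10. Strandedness, the annotation release and the handling of reads with several places are not given in the sources used here. No column of the liver table was left unused (0). Symbols and positions came from a GENCODE annotation of GRCm39, matched by identifier.

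Counts were filtered (filterByExpr), scaled by TMM and tested by the quasi-likelihood method (edgeR 4.0.16, R 4.3.3), with treatment as the only term and all 6 libraries. P-values were two-sided and adjusted by the Benjamini-Hochberg method over all tested genes. CPM are counts scaled to library size with TMM factors, RPKM are CPM per kilobase of exon, errors of CPM are SD over 3 libraries, and the SE of a log2 fold change is its size over the square root of F. Total counts of 14659876 to 20346460 set the precision, and the common biological coefficient of variation was 16.5%. The study's criterion used limma 3.58.1. Alternatives were RLE, upper quartile and library size scaling, no filter, a filter of 1 CPM in 3 libraries, DESeq2 1.42.0, limma-voom, a replicate block and each library left out. The fit was also run on simulated counts with known fold changes. These counts gave all genes the same dispersion and set no library apart. They are thus no check on the spread of single genes or on vehicle library 1. Principal components used log2 CPM with a prior count of 2. Figures were drawn with matplotlib 3.10.9.

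The gene lists, the markers and the part of the series were chosen with earlier results of these data known, and lists are described by counts and medians only. Named genes were all called genes, the 6 genes of the study, per list up to 4 members with the smallest p-value at a mean of at least 10 CPM and the 3 most abundant, the 10 largest rises and falls at that level with an unadjusted p-value under 0.01 and no overlap, the 3 most abundant genes and defining cell markers. Some genes that met this rule are not reported here. Outside this rule, and chosen after their values were seen, stood Fasn, Elovl6, Lpin1, Mlxipl, Hmgcs1, Cyp4a31, Cyp4a10, Fgf21, Plin2, Mttp, Tm6sf2, Cyp8b1, Cyp2c40, Cyp2c68, Cyp2c55, Cyp1a2, Ugt1a6a, Sult1b1, Sult5a1, Sult1d1, Gclc, Gstm3, Orm2, Chac1, Marco, Adipoq, Plin1 and Acta2.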

Additional observations from a re-analysis of the deposited data

How the results depend on the processing

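The count of 11 called genes was 10 or 11 under RLE, the upper quartile, a 1 CPM filter and limma-voom. It was 0 when scaled by library size only, 339 of 22343 without a filter, 98 under DESeq2 and 123 with the replicate block, whose numbers pair no animals by the labels. Leaving out 1 library gave 0 to 31 calls: 0 without vehicle library 2 or esculetin library 1 or 3, and 31 without vehicle library 3. The study's criterion gave 499 genes, 472 scaled by library size only, 571 with the replicate block, and 386 to 800 without 1 library, the 800 without vehicle library 3. Its higher share of 38.7% was 26.9% by library size only. The 1072 genes at an unadjusted p-value under 0.05 became 1312 with the block and 624 to 2331 without 1 library, 624 without esculetin library 3 and 2331 without vehicle library 3, and their higher share of 40.5% became 29.7% by library size only. The cause was not tested. The labels give the replicate numbers no stated meaning, deviations of same-numbered libraries correlated at 0.14, -0.0053 and 0.10, and not every library correlated best with its own number, so the replicates were not taken as pairs.

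For 107 of the named genes under 14 alternatives, 0 of 1498 fold changes took the other sign. In these genes, 53 values of the 11 called genes lost the call, and 162 values of genes not called passed. Many of the 107 were named for a small p-value in the main fit. Named genes with overlapping groups such as Apoa1, Apoe, Cd36, Mup3 and Mup7 were not among them. The count of signs therefore does not cover genes with fold changes near 0. Of 266 list medians, 12 took the other sign, in 6 lists whose medians lay within 0.09 of 0. With 3 libraries per group, each a pool of 2 mice, small differences are not detectable. Even differences well above their SE, such as that of Cyp7b1, were not called. Rare genes such as Acot3 and Orm3 rest on few reads.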

Other observations

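Several functions outside the lists above were also read. Genes of the interferon response, which restrain viruses, were below 0 in 34 of 36 tested members, with a median log2 fold change of -0.27 (-0.23 without vehicle library 1). At an unadjusted p-value under 0.05, 8 were lower and 0 higher, and 0 were called. Stat2, part of the signal from the interferon receptor, had 75.4, 57.4 and 57.7 CPM with vehicle and 45.4, 43.6 and 46.7 CPM with esculetin (log2 fold change -0.49 ± 0.13 (SE, adjusted p by edgeR 0.305)), and Irf1, a transcription factor of the same response, 27.4, 21.7 and 28.1 CPM with vehicle and 20.00, 18.3 and 14.1 CPM with esculetin (-0.56 ± 0.17 (SE, adjusted p by edgeR 0.34)). Both were without overlap. The guanosine triphosphatase Igtp had 37.2, 31.97 and 39.6 CPM with vehicle and 29.5, 25.2 and 28.9 CPM with esculetin (log2 fold change -0.38 ± 0.13 (SE, adjusted p by edgeR 0.472)). Markers of Kupffer cells, the macrophages of the liver, stood beside this: 10 of 12 were below 0, with Marco, Cd68 and Csf1r at an unadjusted p-value under 0.05. Cd68 had 12.7, 16.1 and 16.3 CPM with vehicle and 12.2, 10.4 and 9.38 CPM with esculetin (log2 fold change -0.50 ± 0.17 (SE, adjusted p by edgeR 0.456)), and Csf1r 50.8, 57.6 and 56.00 CPM with vehicle and 45.99, 46.1 and 42.8 CPM with esculetin (-0.28 ± 0.11 (SE, adjusted p by edgeR 0.536)). Of 16 other immune markers 7 were tested, with 0 at this threshold. The part of these cells in the interferon values was not tested.

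Genes of glucose production and insulin response had 3 higher and 0 lower of 21 tested at an unadjusted p-value under 0.05, with a median of 0.15 (0.08 without vehicle library 1 and 0.03 without esculetin library 2). Sds, which turns serine into pyruvate, had 116, 87.2 and 148 CPM with vehicle and 155, 165 and 158 CPM with esculetin (log2 fold change 0.45 ± 0.17 (SE, adjusted p by edgeR 0.497)), and Pck1, which commits pyruvate carbon to glucose, 984, 1438 and 1568 CPM with vehicle and 1532, 2142 and 1866 CPM with esculetin (0.47 ± 0.19 (SE, adjusted p by edgeR 0.52), and 0.30 without vehicle library 1). Esculetin libraries 2 and 3 were the highest for Pck1. Of 17 clock genes 1 was higher and 4 lower, with a median of -0.08 (-0.15 to -0.01 over the alternatives), and Nr1d1, the repressor REV-ERBα, had 10.01, 16.4 and 24.8 CPM with vehicle and 11.2, 12.01 and 6.79 CPM with esculetin (log2 fold change -0.77 ± 0.29 (SE, adjusted p by edgeR 0.513)) with overlapping groups. Of 15 targets and partners of the antioxidant factor Nrf2, 4 were lower and 0 higher, with a median of -0.13. Nfe2l2, which encodes Nrf2, had 76.3, 59.3 and 45.04 CPM with vehicle and 34.9, 34.4 and 36.6 CPM with esculetin, and a log2 fold change of -0.77 ± 0.17 (SE, adjusted p by edgeR 0.165), -0.56 without vehicle library 1. Of 19 endoplasmic reticulum stress genes, 2 were higher and 1 lower, with a median of -0.09 (0.03 without vehicle library 1). Chac1, a target of ATF4 that breaks down glutathione, was rare and without overlap, with 20, 27 and 27 counts with vehicle and 103, 52 and 49 with esculetin (log2 fold change 1.56 ± 0.30 (SE, adjusted p by edgeR 0.11)). Of 20 mitosis genes, all under 10 CPM in every library, 1 was lower, with a median of -0.48.

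Of the abundant genes with large differences, several belonged to no list. Selenbp2, a selenium-binding protein of hepatocytes, had 113, 418 and 612 CPM with vehicle and 1731, 682 and 1359 CPM with esculetin (log2 fold change 1.72 ± 0.47 (SE, adjusted p by edgeR 0.305)). Socs2, a feedback inhibitor of growth hormone signalling, had 2.40, 11.2 and 3.85 CPM with vehicle and 24.9, 13.1 and 20.3 CPM with esculetin (log2 fold change 1.72 ± 0.42 (SE, adjusted p by edgeR 0.244)). For both, esculetin library 2 was only just above the highest vehicle library, the order also seen in the major urinary protein genes. Also higher were Ddit4, an inhibitor of mTORC1 (1.19), Dct (1.06) and Gm31583 (1.40).

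On the lower side, Csad, which takes the rate-limiting step from cysteine to taurine, had 71.9, 135 and 56.3 CPM with vehicle and 28.4, 39.1 and 26.98 CPM with esculetin (log2 fold change -1.48 ± 0.27 (SE, adjusted p by edgeR 0.0839), -1.61 without vehicle library 1). Arrdc3, an arrestin-domain adaptor of receptor traffic, had 89.1, 39.2 and 41.8 CPM with vehicle and 25.5, 21.4 and 20.4 CPM with esculetin (log2 fold change -1.33 ± 0.27 (SE, adjusted p by edgeR 0.12), -0.84 without vehicle library 1). Mug3-ps, Fam193b and Col5a3 were highest in vehicle library 1. Their log2 fold changes were -1.91, -1.49 and -1.28, and -0.82, -0.68 and -0.72 without it.

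Blood and connective tissue markers varied between libraries, and both genes named here overlapped between the groups. Hbb-bs, a beta globin, had 26.8, 378 and 138 CPM with vehicle and 55.5, 67.6 and 179 CPM with esculetin, and Acta2, of smooth muscle and activated stellate cells, 2.95, 5.28 and 4.89 CPM with vehicle and 7.68, 2.40 and 25.9 CPM with esculetin, the highest being esculetin library 3. Of 6 blood markers tested, with a median log2 fold change of -0.84, 1 was higher and 0 lower at an unadjusted p-value under 0.05. The groups did not overlap in 1 higher blood marker. Of 10 stellate markers 1 was higher and 1 lower at this threshold, of 6 cholangiocyte markers 1 was lower, and of 10 endothelial markers 0 were at it.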
